A study of Mus musculus with 8 samples.

Results

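The genes described here are 52 markers of the dividing cell cycle, 26 of S phase, when DNA is copied, and 26 of G2 and M phase, when cells prepare for and carry out mitosis. They were selected by gene symbol from a table of 22244 genes, and all 52 symbols were present. Total RNA was measured by RNA-seq in the right cranial lung lobes of 4 naphthalene-injected and 4 control mice, all adult male wild-type C57BL/6J, a standard inbred strain. Naphthalene is an aromatic hydrocarbon that airway club cells convert to toxic products. Controls had no treatment by their labels. Dose, vehicle and the time of sampling after injection were not given in the sources used here. Naphthalene cannot be told apart from the injection or a vehicle, and neither can fewer cells of a type and less RNA per cell, in any result below.

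Cells entering S phase need the E2F transcription factors, which RB family proteins hold in check until cyclin-dependent kinases release them. E2F drives genes for licensing origins, firing the replicative helicase and supplying nucleotides. Genes of G2 and M phase are switched on later, by the MuvB complex with B-Myb and FOXM1 acting at CHR elements and by NF-Y at CCAAT boxes, and are repressed in quiescent or arrested cells by the DREAM complex. Few cells divide in a healthy adult lung, and cell division after airway injury is known to depend strongly on the time since injury.

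Totals were 11233709 to 16792306 counts in naphthalene libraries and 10743842 to 13518183 counts in control libraries. Of 1150 RefSeq protein-coding genes of chromosome 1 found in the table by symbol, 1138 (99.0%) were listed at 0 in all 8 libraries, against 0.399% to 11.5% of the genes on other autosomes. Mcm3, Mcm6 and Cenpf lie on chromosome 1, are listed at 0 in all 8 libraries, and were not analysed here. Ube2c, which helps degrade mitotic cyclins, had 5, 12, 14 and 8 counts in naphthalene libraries and 5, 12, 7 and 5 counts in control libraries, too few to test. That left 24 tested genes in each class, among 14192 tested genes in all. Lung identity was plain in the surfactant gene Sftpc, at 6502 ± 1081 CPM (counts scaled per 1e6 of library size after TMM scaling) in naphthalene lungs and 6452 ± 778 CPM in control lungs (mean ± SD, n = 4 each). Cyp2f2, the club cell enzyme that activates naphthalene, was at 207 ± 71.1 CPM in naphthalene lungs and 1274 ± 394 CPM in controls. Control 3 stood apart in neutrophil marker RNA, with a summed level of 359.8 CPM against 53.6 to 80.1 CPM in the other controls.

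Sequence before the transcription start is shown for 3 of the mitotic genes that fell and for Pcna, the S phase gene that rose. They are examples picked with these results known, and their promoters differ in the elements described above. Each line gives the 250 bases before the RefSeq gene start on GRCm38.p6, 5′ to 3′ on the coding strand. Kif11 is chr19:37376132-37376381 (plus strand), Top2a is chr11:99024190-99024439 (minus), Cdk1 is chr10:69352913-69353162 (minus) and Pcna is chr2:132253181-132253430 (minus). Capitals mark matches on either strand to CHR letters (TTTGAA or TTCGAA), E2F letters (TTCCCGC, and also TTGGCGC, and also TTCGCGC) and the CCAAT box (CCAAT).
Kif11: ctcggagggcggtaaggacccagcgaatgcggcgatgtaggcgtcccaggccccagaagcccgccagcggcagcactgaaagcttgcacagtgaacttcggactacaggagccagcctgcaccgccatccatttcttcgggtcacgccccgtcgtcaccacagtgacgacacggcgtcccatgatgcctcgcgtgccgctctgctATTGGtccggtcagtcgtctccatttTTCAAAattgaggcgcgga
Top2a: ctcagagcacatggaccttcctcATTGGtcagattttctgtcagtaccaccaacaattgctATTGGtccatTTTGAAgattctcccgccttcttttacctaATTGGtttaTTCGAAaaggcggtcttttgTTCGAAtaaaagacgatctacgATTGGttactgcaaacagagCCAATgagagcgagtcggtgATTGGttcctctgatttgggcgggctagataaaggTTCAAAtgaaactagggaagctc
Cdk1: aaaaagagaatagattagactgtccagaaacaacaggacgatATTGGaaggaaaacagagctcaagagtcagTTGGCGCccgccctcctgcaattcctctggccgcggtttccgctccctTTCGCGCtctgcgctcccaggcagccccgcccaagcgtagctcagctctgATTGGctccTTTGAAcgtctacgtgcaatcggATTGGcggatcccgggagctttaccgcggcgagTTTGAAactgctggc
Pcna: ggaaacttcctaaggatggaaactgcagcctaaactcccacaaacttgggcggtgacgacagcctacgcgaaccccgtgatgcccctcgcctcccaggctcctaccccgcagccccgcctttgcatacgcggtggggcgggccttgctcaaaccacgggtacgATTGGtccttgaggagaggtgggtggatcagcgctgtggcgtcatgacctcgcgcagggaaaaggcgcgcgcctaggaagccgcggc
The Kif11 stretch held 1 CHR match and 1 CCAAT match, Top2a held 4 CHR and 6 CCAAT matches, and Cdk1 held 2 CHR, 3 CCAAT and 2 E2F matches. Pcna held 1 CCAAT match and 0 matches to the CHR or E2F letters searched. An E2F match can share letters with a CCAAT match, since TTGG ends the reversed CCAAT box.

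A promoter was found for 43 of the 52 genes. CHR letters stood in 10 of 21 G2/M promoters (47.6%) and 3 of 22 S phase promoters (13.6%), beside 16.4% of 17492 protein-coding promoters of the same length. E2F letters stood in 4 of 21 G2/M promoters (19.0%) and 11 of 22 S phase promoters, beside 8.71% of all. CCAAT boxes stood in 18 of 21 G2/M promoters (85.7%) and 14 of 22 S phase promoters (63.6%), beside 36.3% of all. Bub1, which also fell, held 2 CCAAT matches and 0 CHR matches, and Mki67 held 2 CHR, 3 CCAAT and 1 E2F matches. Tested G2/M genes with CHR letters had log2 fold changes (naphthalene over control) from -1.24 (Kif11) to 0.19 (Cdc20). Those with a promoter but 0 CHR matches had values from -0.81 (Ccnb1) to 0.19 (Prc1). A link between these letters and the fold changes was not tested.

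The question put to these genes was whether their RNA differed between naphthalene and control lungs. Several G2/M genes, among them Kif11, Cdk1 and Top2a, fell in naphthalene lungs, and 1 S phase gene, Pcna, rose. Among G2/M genes, 5 of 24 (20.8%) passed as lower and 0 as higher at an edgeR quasi-likelihood adjusted p under 0.05, the threshold used throughout. Of all tested genes, 14.6% passed as lower, a share of the same order. The direction was more uniform than the calls, with log2 fold changes (naphthalene over control) below 0 in 22 of 24 G2/M genes (91.7%), beside 48.7% of all tested genes. Their median was -0.39, beside 0.01 over all tested genes, and the middle of the class ran from -0.78 to -0.27 (quartiles). Among S phase genes, 1 of 24 (4.17%) passed as higher and 0 as lower, fewer than the 14.1% of all tested genes that passed as higher. S phase log2 fold changes were above 0 in 19 of 24 genes (79.2%), beside 51.3% of all tested genes, with a median of 0.26 and quartiles of 0.04 and 0.34. Most S phase differences were small, with 21 of 24 log2 fold changes within 0.5 of 0, against 13 of 24 in G2/M. At an unadjusted p under 0.05, 8 G2/M genes were lower and 0 higher, while 5 S phase genes were higher and 1 lower, beside 20.3% lower and 20.1% higher of all tested genes.

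**Figure D1:**
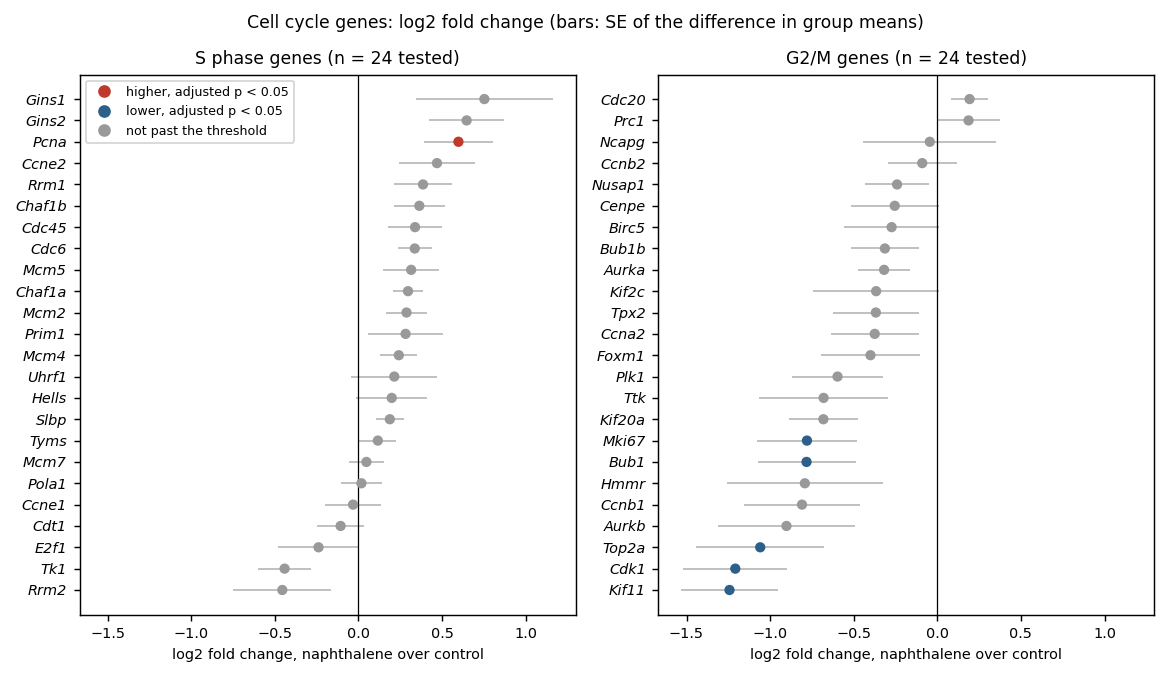
Log2 fold change, naphthalene over control, of the 24 tested S phase genes (left) and 24 tested G2/M genes (right), with bars for the SE of the difference in group means (4 libraries each). In G2/M 22 of 24 points lie below 0 and 5 are coloured as lower, while in S phase 19 of 24 lie above 0 and Pcna alone is coloured as higher.

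Summed over each class, the G2/M genes were at 68.1% and the S phase genes at 120% of their control mean in naphthalene lungs. The G2/M genes summed to 85.9, 98.8, 142.6 and 131.4 CPM in naphthalene libraries 1 to 4, against 134.1, 199.3, 190.4 and 149.6 CPM in control libraries 1 to 4. Naphthalene 3 lay above control 1, so these sums overlapped, with means of 115 ± 26.7 CPM in naphthalene lungs and 168 ± 31.5 CPM in control lungs (SD, n = 4). Mki67 and Top2a weigh heavily in them. The G2/M median of log2 CPM minus each gene's mean over the 8 libraries was 0.13 in naphthalene 3. Control 1 and 4 lay below that, at -0.03 and 0.07, and control 2 and 3 above it, at 0.53 and 0.36. Naphthalene 1, 2 and 4 were at -0.57, -0.32 and -0.11, below every control. The S phase genes summed to 344.6, 358.5, 429.3 and 435.3 CPM in naphthalene libraries, against 288.4, 347.3, 347.5 and 325.2 CPM in control libraries. The ratio of G2/M to S phase RNA was 0.249, 0.276, 0.332 and 0.302 in naphthalene libraries and 0.465, 0.574, 0.548 and 0.460 in control libraries. Every naphthalene value lay below every control value, and the mean ratio in naphthalene lungs was 56.6% of that in controls. Without Pcna, Mki67 and Top2a, which carry many of the counts, the ratio was 0.218 to 0.275 in naphthalene libraries and 0.332 to 0.402 in control libraries, again without overlap. No p is given for these sums, since their genes were chosen with results of these data known.

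**Figure D2:**
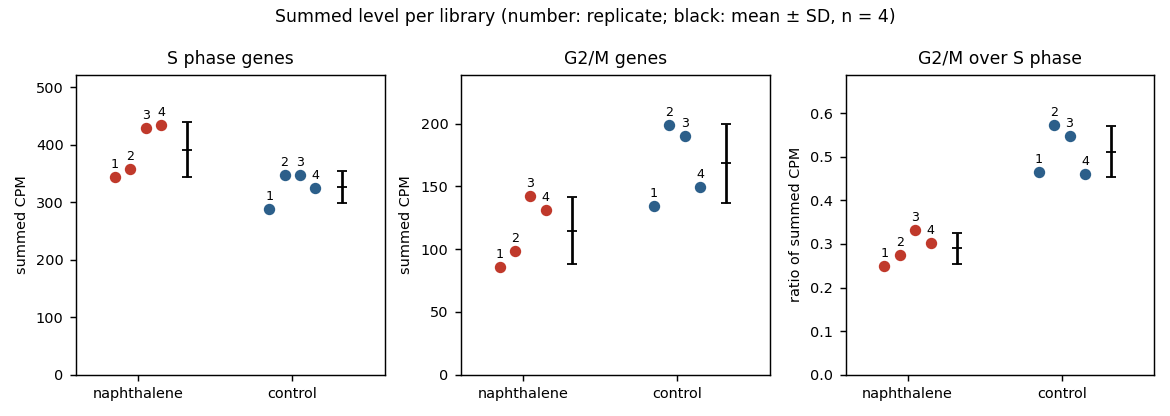
Summed CPM of the S phase genes (left) and G2/M genes (middle) and their ratio (right), with 1 point per library, its replicate number, and the mean ± SD in black (n = 4). The ratio runs from 0.249 to 0.332 in naphthalene libraries and from 0.460 to 0.574 in control libraries.

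The naphthalene libraries were not alike. Naphthalene 1 and 2 had 18 and 14 of the 24 G2/M genes below all 4 controls, against 6 in naphthalene 3 and 10 in naphthalene 4. Of the S phase genes, 14 and 17 lay above all 4 controls in naphthalene 3 and 4, against 7 and 11 in naphthalene 1 and 2. Naphthalene 3 and 4 were thus the higher libraries of their group in both classes. They also had the lowest totals (11798360 and 11233709 counts) and endothelial marker sums (1850 and 1543 CPM) of their group. Across the measured genes, chi-square over degrees of freedom was 45.4 and 51.2 for naphthalene 1 against naphthalene 3 and 4. Between controls it was at most 18.2. Naphthalene 1 against 2 gave 14.7, naphthalene 2 against 3 and 4 gave 17.2 and 29.2, and naphthalene 3 against 4 gave 18.4. By this measure naphthalene 1, the library with the most counts, lay far from 3 and 4, but naphthalene 2 was not clearly apart from 3. The cause of these differences was not tested. Control 2 and 3 were the higher controls for G2/M RNA.

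**Figure D3:**
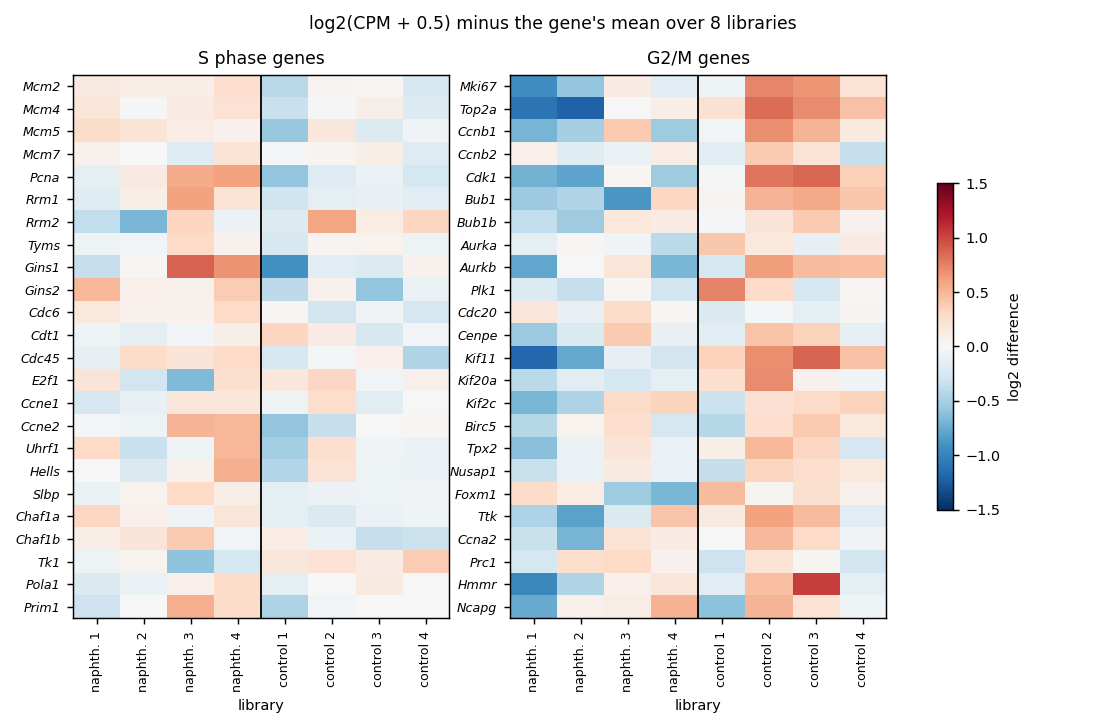
Log2(CPM + 0.5) of each tested gene minus its mean over the 8 libraries, with S phase genes left, G2/M genes right, and naphthalene columns before control columns. Blue cells gather in naphthalene 1 and 2 among G2/M genes, red cells in control 2 and 3, while S phase rows are paler, with red cells mainly in naphthalene 3 and 4.

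Kif11, the kinesin that pushes spindle poles apart, differed most among the G2/M genes. It had 2.56, 3.59, 5.89 and 5.22 CPM in naphthalene libraries, against 8.34, 10.74, 12.2 and 8.88 CPM in control libraries. The groups did not overlap, and the log2 fold change was -1.24 (SE 0.29, edgeR adjusted p = 0.00386). Cdk1, the kinase that drives entry into mitosis, had 1.49, 1.37, 2.81 and 1.74 CPM in naphthalene libraries, against 2.69, 5.15, 5.36 and 3.65 CPM in control libraries. Naphthalene 3 reached just above the lowest control, and the log2 fold change was -1.21 (SE 0.31, edgeR adjusted p = 0.0118). Kif11 and Cdk1 passed under all 16 alternative settings, with adjusted p up to 0.0160 for Kif11 and 0.0451 for Cdk1.

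Top2a, the topoisomerase that untangles replicated chromosomes, had 7.98, 7.31, 17.5 and 18.9 CPM in naphthalene libraries, against 20.8, 32.001, 29.1 and 24.1 CPM in control libraries. The groups did not overlap, and the log2 fold change was -1.06 (SE 0.38, edgeR adjusted p = 0.0195). Without control 2, Top2a had an adjusted p of 0.0579. Mki67, the proliferation antigen that coats mitotic chromosomes, had 15.5, 19.9, 32.7 and 26.6 CPM in naphthalene libraries, against 28.7, 50.1, 47.6 and 35.02 CPM in control libraries. Its groups overlapped at naphthalene 3 and control 1, with a log2 fold change of -0.78 (SE 0.30, edgeR adjusted p = 0.0291). Mki67 did not pass without naphthalene 2, control 2 or control 3 (adjusted p 0.0685 to 0.0877). Bub1, a spindle checkpoint kinase, had 4.40, 4.76, 3.43 and 8.42 CPM in naphthalene libraries, against 6.90, 9.72, 10.1 and 9.10 CPM in control libraries. Naphthalene 4 lay within the control range, and the log2 fold change was -0.78 (SE 0.29, edgeR adjusted p = 0.0392). The Bub1 call was the least stable, lost on leaving out 6 of the 8 libraries singly, all but naphthalene 4 and control 1 (adjusted p 0.0644 to 0.0988).

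The G2/M count itself depended on single libraries. It was 2 without control 2, 3 without control 3 and 3 without naphthalene 2, and also 3 without control 3 and naphthalene 1 together. Under those settings the G2/M median log2 fold change lay between -0.42 and -0.34.

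**Figure D4:**
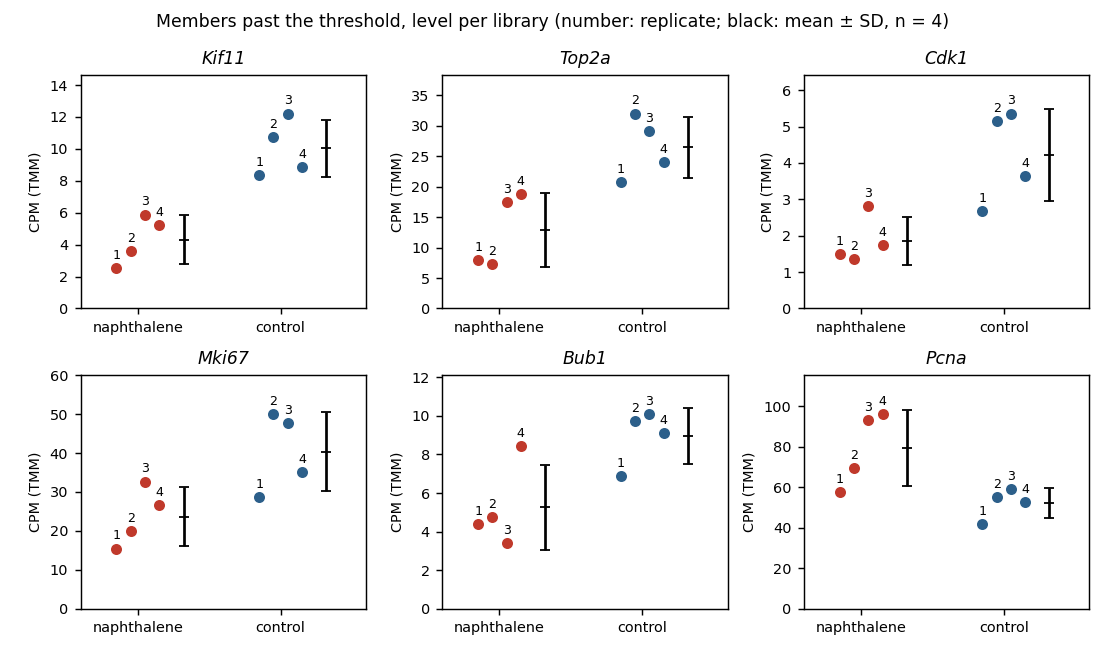
CPM per library of the 6 genes past the threshold, with the replicate number beside each point and the mean ± SD in black (n = 4). Naphthalene points lie below all control points for Kif11 and Top2a, overlap them at 1 library for Cdk1, Mki67 and Bub1, and lie mostly above them for Pcna.

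All 6 tested mitotic kinases of the G2/M class had log2 fold changes below 0, with a median of -0.64. Besides Bub1, these were Aurkb (-0.90) and Aurka (-0.32), which act at centromeres and spindle poles, Ttk (-0.68) and Bub1b (-0.31) of the spindle checkpoint, and Plk1 (-0.60), and none of these 5 passed. The cyclins gave log2 fold changes of -0.81 for Ccnb1, -0.37 for Ccna2 and -0.09 for Ccnb2, and did not pass. Exons of Ccna2 share 12.5% of their bases with Exosc9 on the opposite strand, so its value is uncertain. Ccnb1, the main partner of Cdk1, had 1.01, 1.24, 2.72 and 1.19 CPM in naphthalene libraries, against 1.88, 3.48, 2.99 and 2.22 CPM in control libraries. Naphthalene 3 alone lay within the control range, and without it Ccnb1 passed (log2 fold change -1.21, edgeR adjusted p = 0.0184, against 0.103 with all libraries). The 4 tested kinesins of the G2/M class, which also include Kif20a, Kif2c and Cenpe, had a median log2 fold change of -0.52. Kif20a, a kinesin of the dividing midzone, did not overlap between groups (1.07 to 1.37 CPM in naphthalene libraries, 1.504 to 2.90 CPM in controls) but had an edgeR adjusted p of 0.0886. Its exons share 29.3% of their bases with Cdc23 on the opposite strand, so its counts are uncertain. In all, 3 of 24 G2/M genes lay below the controls without overlap (Kif11, Top2a and Kif20a), beside 14.7% of all tested genes.

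The 4 tested spindle-associated genes had a median log2 fold change of -0.30. Of these Hmmr was at -0.79, Tpx2 at -0.37 and Nusap1 at -0.24, while Prc1, which bundles midzone microtubules, was at 0.19. Cdc20, which activates the anaphase-promoting complex, was also at 0.19, with 5.37 ± 0.704 CPM in naphthalene lungs and 4.68 ± 0.415 CPM in controls. The passenger complex gene Birc5 stood at -0.27, the condensin gene Ncapg at -0.05 and Foxm1, the transcription factor of G2/M genes, at -0.40. None of these 8 genes passed. Exons of Prc1 share 11.1% of their bases with Rccd1 and those of Ncapg 13.4% with Lcorl, both on the opposite strand, so these values are uncertain.

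In S phase, Pcna alone rose. Pcna encodes the sliding clamp that holds DNA polymerases on the template and serves DNA repair as well as replication. It had 57.6, 69.4, 93.4 and 96.2 CPM in naphthalene libraries, against 42.0, 55.2, 59.1 and 52.5 CPM in control libraries. Naphthalene 1 lay within the control range, and the log2 fold change was 0.60 (SE 0.21, edgeR adjusted p = 0.0212). The call was lost without naphthalene 3, control 1 or control 4 (adjusted p 0.0533 to 0.0662), so the count of S phase genes past the threshold was then 0. Without naphthalene 1 it was 3, with Gins1 and Rrm1 added. Per kilobase of exon Pcna had the highest level of the 48 tested genes, at 33.0 CPM per kb in naphthalene lungs and 21.8 CPM per kb in control lungs. The median of the S phase class was 1.95 CPM per kb in naphthalene lungs and 1.89 in controls, and that of G2/M was 0.615 in naphthalene lungs and 0.915 in controls.

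The nucleotide supply genes went both ways. Rrm1, the large subunit of ribonucleotide reductase, had 40.2, 48.8, 70.1 and 52.8 CPM in naphthalene libraries, against 37.0, 41.4, 42.4 and 41.1 CPM in control libraries (log2 fold change 0.39, SE 0.17, edgeR adjusted p = 0.0757). The groups overlapped at naphthalene 1 only. Its small subunit Rrm2 had a log2 fold change of -0.46 (edgeR adjusted p = 0.224). Tk1, the thymidine kinase of cycling cells, had 8.15, 9.001, 5.54 and 7.14 CPM in naphthalene libraries, against 9.77, 10.1, 9.49 and 11.4 CPM in control libraries. Its groups did not overlap, but it did not pass (log2 fold change -0.44, SE 0.16, edgeR adjusted p = 0.0665). Tyms, the thymidylate synthase gene, stood at 0.12.

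The 6 tested licensing genes, which load the replicative helicase at origins, had a median log2 fold change of 0.26 and none passed. Mcm2, a subunit of that helicase, had 17.1, 16.6, 16.7 and 18.7 CPM in naphthalene libraries, against 11.6, 16.04, 15.9 and 13.0 CPM in control libraries. Its groups did not overlap, although naphthalene 2 stood close to control 2, and it had a log2 fold change of 0.29 (SE 0.12, edgeR adjusted p = 0.124). Mcm4, Mcm5 and Mcm7 were at 0.24, 0.31 and 0.05, and the loading factors Cdc6 and Cdt1 at 0.34 and -0.11. The helicase activation genes Gins1, Gins2 and Cdc45 were at 0.75, 0.65 and 0.34, the largest median of any role (0.65), at levels of only 0.879 to 6.41 CPM. In all, 4 of 24 S phase genes lay above the controls without overlap (Mcm2, Gins2, Cdc6 and Chaf1a), beside 13.9% of all tested genes, and none of them passed. Exons of Gins2 share 67.3% of their bases with Gse1 and those of Chaf1a 52.5% with Ubxn6, both on the opposite strand, so these values are uncertain.

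Uhrf1 and Hells, which maintain DNA methylation, the histone mRNA binder Slbp and the histone chaperone subunits Chaf1a and Chaf1b ranged in log2 fold change from 0.19 to 0.36, and none passed. Prim1, a primase subunit, stood at 0.28 and Pola1, the catalytic subunit of DNA polymerase alpha, at 0.02, and neither passed. E2f1, the transcription factor of S phase entry, had 7.08, 4.96, 3.69 and 7.33 CPM in naphthalene libraries, against 6.99, 7.76, 5.98 and 6.52 CPM in control libraries. The groups overlapped widely (log2 fold change -0.24, SE 0.24, edgeR adjusted p = 0.443). Ccne1, a cyclin of the G1 to S transition, had 1.37, 1.57, 2.02 and 2.01 CPM in naphthalene libraries, against 1.61, 2.18, 1.49 and 1.72 CPM in control libraries (log2 fold change -0.03, edgeR adjusted p = 0.936). Its relative Ccne2 stood at 0.47 (edgeR adjusted p = 0.108), with 17.4% of its exon bases shared with Ints8 on the opposite strand.

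Other cell cycle genes were read from lists of the same pathway. Some genes of these lists lie on chromosome 1, were listed at 0 in all 8 libraries and were not tested. These were Nuf2, Kif14, Aspm, Nek2 and Sgo2a for mitosis, Orc2 and Prim2 for replication, and Lin9 of the RB, E2F and DREAM list. Among 42 other tested mitosis genes, 8 (19.0%) fell and 1 (2.38%) rose, beside 14.6% lower and 14.1% higher among all tested genes. Log2 fold changes were below 0 in 31 of the 42 (73.8%), beside 48.7% of all tested genes, with a median of -0.25. Those with the smallest p were Kif23, a cytokinesis kinesin (6.43 ± 0.589 CPM in naphthalene lungs, 11.1 ± 2.01 CPM in controls), and the condensin gene Ncaph (4.47 ± 1.27 CPM in naphthalene lungs, 8.92 ± 1.38 CPM in controls). Next came Cenpa, the centromeric histone variant, and the kinase Melk, with log2 fold changes of -0.93 and -1.29, and the chromokinesin Kif4 at -0.996 (edgeR adjusted p 0.00444 to 0.0133 over these 5). All 5 passed under all 16 alternative settings. The 1 that rose was the kinesin Kif18a at 0.88, named after its value was seen. It lost its call under 7 of the 16 alternative settings, of which 6 left out 1 library.

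Among 41 other tested replication genes, 5 (12.2%) rose and 1 (2.44%) fell, so the list held no larger a share of higher genes than all tested genes (14.1%). The median log2 fold change was 0.12. Rfc4, a subunit of the loader that places PCNA on DNA, had 13.0 ± 3.13 CPM in naphthalene lungs and 6.92 ± 1.09 CPM in controls (log2 fold change 0.90, SE 0.21, edgeR adjusted p = 0.00617). Pole3, an accessory subunit of DNA polymerase epsilon, rose by a log2 value of 0.43, and the origin gene Orc6 and the helicase gene Gins4 by 0.43 and 0.33. Gmnn, which encodes geminin, the inhibitor of Cdt1 that accumulates in S, G2 and M phase, fell to 6.21 ± 1.26 CPM in naphthalene lungs, against 10.2 ± 1.53 CPM in controls (log2 fold change -0.72, edgeR adjusted p = 0.0128). Orc6 and Gins4 lost their calls under 4 and 7 of the 16 alternative settings, of which 4 and 6 left out 1 library. Rfc4, Pole3 and Gmnn passed under all 16. The count that rose was 8 without naphthalene 1, 3 without naphthalene 2, and 2 without naphthalene 3 or control 1, 2 or 4.

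Of 6 tested inhibitors of cyclin-dependent kinases, 3 rose (Cdkn1a, Cdkn2b and Cdkn1c) and 0 fell, beside 14.1% higher and 14.6% lower among all tested genes. Cdkn1a, which encodes p21, an inhibitor that binds both kinases and PCNA, had 58.4, 67.8, 90.7 and 32.3 CPM in naphthalene libraries, against 12.5, 12.2, 11.1 and 16.2 CPM in control libraries. The groups stood far apart, with a log2 fold change of 2.26 (SE 0.33, edgeR adjusted p = 0.000171). Cdkn2b, the p15 inhibitor of Cdk4 and Cdk6, had 57.3 ± 12.1 CPM in naphthalene lungs and 24.6 ± 2.63 CPM in controls (log2 fold change 1.22). Cdkn1c rose by a log2 value of 0.42 (edgeR adjusted p = 0.0420). It lost its call under 9 of the 16 alternative settings, of which 6 left out 1 library. The other 3 did not pass, with log2 fold changes of 0.07 for Cdkn1b, the p27 inhibitor of resting cells, 0.30 for Cdkn2d and -0.26 for Cdkn2c.

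Of 12 tested G1 cyclins and kinases, 1 rose and 1 fell (8.33% each), below the 14.1% higher and 14.6% lower among all tested genes. Myc, a transcription factor of growth and cell cycle entry, had 16.1, 15.7, 18.9 and 14.3 CPM in naphthalene libraries, against 5.56, 4.50, 3.08 and 4.08 CPM in control libraries (log2 fold change 1.91, SE 0.19, edgeR adjusted p = 4.94e-05). Cdk6, a G1 kinase, fell by 0.51 on the log2 scale, with every naphthalene library below every control. Ccnd1, the cyclin D1 gene, had 51.1 ± 9.81 CPM in naphthalene lungs and 58.2 ± 6.75 CPM in controls and did not pass (edgeR adjusted p = 0.356). Of 17 tested RB, E2F and DREAM genes, 2 (11.8%) fell and 1 (5.88%) rose, again below those shares. E2f2 and E2f7 fell, with log2 fold changes of -0.40 and -0.71, and Lin54 rose, at 0.40. E2f2 lost its call without control 4, and Lin54 without 6 of the 8 libraries. E2f7 lost its call under 11 of the 16 alternative settings, of which 7 left out 1 library.

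Of 16 tested genes listed as p53 growth arrest targets, 7 (43.8%) rose and 0 fell. Btg2 and Phlda3 of that list, on chromosome 1, were listed at 0 in all 8 libraries and not tested. Among all tested genes, 14.1% passed as higher and 14.6% as lower. Those with the smallest p were Gadd45g, Gadd45b, Plk3, Sfn and Sesn2, with log2 fold changes of 1.96, 0.85, 1.15, 2.31 and 0.91 (edgeR adjusted p 4.74e-05 to 0.00184). Gadd45g, Gadd45b and Plk3 are stress response genes, and Sfn encodes an epithelial 14-3-3 protein that holds back entry into mitosis. The other genes that rose were Ccng1, the cyclin G1 gene, and Gadd45a, with log2 fold changes of 0.52 and 0.63 (edgeR adjusted p = 0.0350 and 0.0230), and they lost their calls without 5 and 4 of the 8 libraries. The other 9 tested genes did not pass, with log2 fold changes between -0.19 (Sesn1) and 0.20 (Trp53inp1). The rest of these were Mdm2 (0.16), Plk2 (0.18), Ddb2 (0.07), Polk (0.06), Zmat3 (0.02), Rrm2b (-0.04) and Xpc (-0.06). Whether p53 itself was active was not tested.

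**Figure D5:**
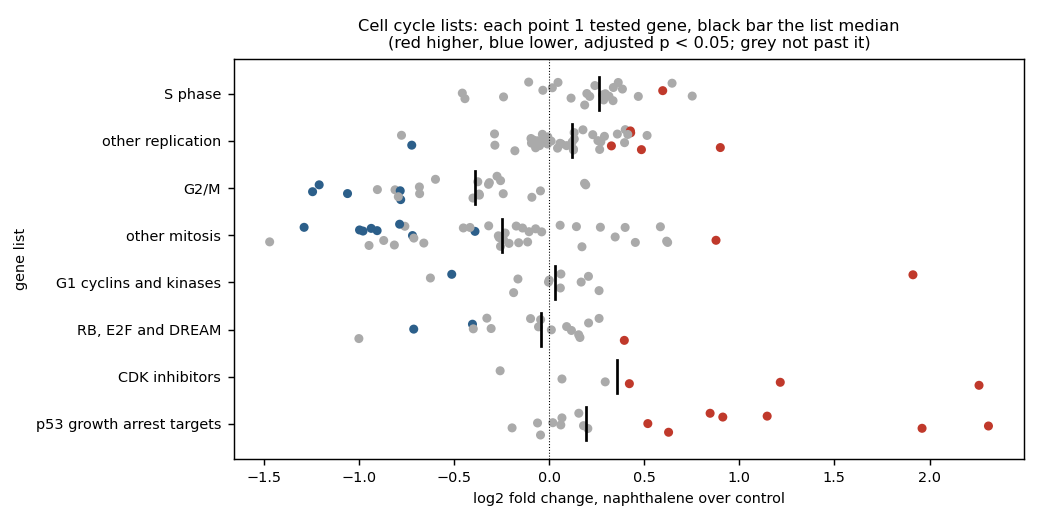
Log2 fold change, naphthalene over control, of each tested gene in 8 cell cycle lists, with the list median as a black bar and genes past the threshold in red (higher) or blue (lower). Medians are 0.26 for S phase, 0.12 for other replication genes, -0.39 for G2/M and -0.25 for other mitosis genes, and the CDK inhibitors and p53 targets hold red points up to 2.31.

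Markers of several cell types also differed between the groups. Beside the counts below, 14.1% of all tested genes passed as higher and 14.6% as lower. T cell markers summed to 17.7 to 26.4 CPM in naphthalene libraries and 45.3 to 52.7 CPM in controls, with 8 of 9 tested genes lower. B cell markers summed to 46.8 to 80.2 CPM in naphthalene libraries and 144.1 to 197.6 CPM in controls, and NK cell markers to 11.3 to 24.2 CPM in naphthalene libraries and 42.4 to 55.7 CPM in controls, with 7 of 7 tested genes lower in each. The NK gene Eomes had 1, 7, 3 and 4 counts in naphthalene libraries and 12, 12, 11 and 21 in controls. Only its control libraries brought it past the count filter. Club and ciliated cell markers fell likewise, with 6 of 7 tested genes lower in each. Of these lists Cd28 and Cr2 were listed at 0. Endothelial sums overlapped, at 1543 to 3344 CPM in naphthalene libraries and 2777 to 3211 CPM in controls. Of 8 tested endothelial genes 1 was lower (12.5%), no larger a share than among all tested genes. Alveolar macrophage markers overlapped too, at 358.8 to 970.2 CPM in naphthalene libraries and 337.7 to 679.7 CPM in controls, with Marco listed at 0. Chil3 carried most of that sum, at 582 CPM in naphthalene lungs and 407 CPM in controls, and did not pass. The other 6 of 7 tested macrophage genes had log2 fold changes below 0, of which Fabp1 fell (-1.21, edgeR adjusted p = 0.0183). Fibroblast sums did not overlap, at 2456 to 2928 CPM in naphthalene libraries and 2945 to 3013 CPM in controls, although 0 of 6 tested genes passed, and Col3a1 was listed at 0. Neutrophil markers, with Cxcr2 listed at 0, summed to 179.8 to 467.9 CPM in naphthalene libraries and 53.6 to 359.8 CPM in controls, with 2 of 5 tested genes higher. Neutrophil precursor markers summed to 7.24 to 48.6 CPM in naphthalene libraries and 23.1 to 57.4 CPM in controls. Ltf carried most of that sum, at 16.804 CPM in naphthalene lungs and 45.9 CPM in controls, and did not pass. Besides Ltf, only the granule protease gene Prtn3 was tested in that list, and it passed as higher. Its mean was 1.06 CPM in naphthalene lungs and 0.0981 CPM in controls, from 24, 13, 12 and 10 counts against 0, 2, 2 and 1. Only its naphthalene libraries brought it past the count filter, so the call carries no weight beyond these counts. The 6 precursor genes too low to test each had a higher mean in naphthalene lungs, as with Elane at 0.628 CPM in naphthalene lungs and 0.0179 CPM in controls. In the other 5 this rested mainly on naphthalene 3. Camp and Ngp had 45 and 52 counts there, against 4 to 13 and 5 to 14 in the other naphthalene libraries. Mpo, Ctsg and Fcnb had 7, 3 and 4 counts there and at most 2 in any other library. Erythroid precursor markers summed to 15.2 to 75.1 CPM in naphthalene libraries and 12.5 to 46.4 CPM in controls, with 2 of 4 tested genes higher and 1 lower. Alveolar type 2 sums overlapped at 16190 to 19930 CPM in naphthalene libraries and 14370 to 17360 CPM in controls, with 2 of 7 genes higher, as did alveolar type 1 sums, with 3 of 7 higher. The part of these cell types in the fall of G2/M genes was not tested.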

How the data were processed

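RNA-seq libraries of 4 naphthalene-injected and 4 control lungs were stranded and made from total RNA, per the labels' protocols. Whole-number counts per gene symbol were deposited by the authors without normalisation. Per the submitters' processing notes, mm39 was listed as build, and the tools listed included HISAT2 2.2.1 and Trim Galore 0.6.7, with featureCounts 2.0.6 and edgeR 4.2.1 also listed. How strand and reads with several matches were counted, and on which annotation, is not given in the sources used here, so counts of overlapping genes are uncertain. Exons of 17 of the 52 genes overlap another gene in GENCODE M21, 8 of them over more than 10% of exon bases.

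Columns were matched to mice by library name, and 0 columns belonged to other samples. All 14192 genes that passed filterByExpr (minimum count 10, minimum total 15) were tested together in R 4.3.3 with edgeR 4.0.16 (TMM scaling, quasi-likelihood test, group as the only term), with Benjamini-Hochberg adjustment over all of them. The procedure was tested on simulated counts with log2 changes of 1 and 2 in either direction. It recovered 80% to 84% of the changes of 1 and 98% to 100% of those of 2. Of 190 calls, 9 were false. Smaller changes, such as most of those in S phase, were not simulated, so recovery there is not known. SE values come from log2 CPM with a prior count of 2. Within groups, no library repeated another, since chi-square over degrees of freedom was 5.75 or more in all 12 pairs. Nothing in the labels pairs mice across groups. Alternatives were a filter at a CPM of at least 1 in 4 libraries or none at all, scaling by RLE or by the upper quartile, a block on replicate number, DESeq2 1.42.0, voom in limma 3.58.1, each library left out, and, added after seeing the data, control 3 and naphthalene 1 left out together.

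The genes and lists were chosen with earlier results of these data known, so no p is given for a list. Values are given per library for genes past the threshold, for the S phase genes of smallest p and for Mki67, Top2a, Pcna, Mcm2, E2f1, Ccne1, Ccnb1 and Cdk1. In other lists up to 5 genes of smallest p past the threshold were named, besides Cdkn1a, Ccnd1 and Myc. Kif18a, Ccng1, Gadd45a, Cdkn1b, Cdkn2c, Cdkn2d and the tested p53 list genes that did not pass fall outside this rule. They were named after their values were seen. Other genes are given by role. Promoters are RefSeq sequences on GRCm38.p6, another build than that of the counts, and chromosomes and exon lengths come from that build too.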

Additional observations from a re-analysis of the deposited data

Results flagged for a closer look

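Among 106 groups of 4 values screened, of which chance flags about 1 in 20, 2 held a library far from the others. Ccnb1 stood at 2.72 CPM in naphthalene 3, against 1.01 to 1.24 CPM in the other naphthalene libraries. Prim1 stood at 5.47 CPM in control 1, against 7.47 to 7.66 CPM in the other controls.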

How the results depend on the processing

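The 48 tested genes kept their side of the threshold under RLE and upper quartile scaling, both other filters, DESeq2 and voom. The number of G2/M genes with log2 fold changes below 0 was 20 to 22 and of S phase genes above 0 17 to 20 under all alternatives, and the class medians moved by less than the spread between libraries. Leaving out 1 library at a time gave 0 to 3 higher S phase genes and 2 to 6 lower G2/M genes. It gave 1 to 2 lower G1 genes, 0 to 1 higher and 0 to 3 lower RB, E2F and DREAM genes, 2 to 8 higher replication genes, and 0 to 3 higher and 5 to 9 lower other mitosis genes. Fewer samples then enter the fit. No pairing of mice by replicate number was visible, although so few libraries cannot exclude it. Deviations of same-numbered libraries correlated by -0.093 to 0.287, and 3 of 8 libraries correlated best with their own number. With the replicate block, 3 S phase genes were higher (Rrm1 and Ccne2 added) and 1 RB, E2F and DREAM gene was lower. Without the filter that last count was also 1, and higher other mitosis genes numbered 2 with DESeq2 and 0 with voom. Without control 3 and naphthalene 1 together, 2 S phase genes were higher and 3 G2/M genes lower, 2 G1 genes were higher and 2 lower, 8 replication genes were higher and 2 lower, and 3 other mitosis genes were higher. The cause of these shifts was not tested. Counting error is largest relative to the level in the G2/M genes of lowest CPM, such as Aurkb and Kif2c.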
